A study of Mus musculus with 2 samples.

Results

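The microRNAs of the miR-23, miR-27 and miR-24 clusters were measured in exosomes of KPC cells, a murine pancreatic cancer line, and of MPDC cells, a murine pancreatic ductal epithelial line that served as the control. The members were taken by name as the 7 mature miRNAs of these clusters listed for the comparison, out of 1881 mouse miRNAs on the array. They were mmu-miR-23a-3p, mmu-miR-23b-3p, mmu-miR-27a-3p, mmu-miR-27b-3p, mmu-miR-24-3p, mmu-miR-24-1-5p and mmu-miR-24-2-5p. The rule for membership used names and no signal.

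The KPC line came from a pancreatic tumour of mice with the alleles KrasLSL-G12D/+ and Trp53LSL-R172H/+ and the Pdx1-Cre transgene, which switches on both mutant alleles in the pancreatic lineage. It was grown in RPMI-1640 with 20% fetal bovine serum, sodium pyruvate and non-essential amino acids. The MPDC line was bought from a supplier and grown in DMEM with 10% fetal bovine serum, and no genotype was given for it. Line, medium and serum level therefore cannot be told apart. Exosomes, the small vesicles that cells release, were collected from culture supernatant by differential ultracentrifugation, and their RNA was labelled with Cy3. One array was hybridised for each line, so no difference has a replicate check and no test across samples was possible.

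Both clusters are ancient copies of each other, and each is transcribed as a primary RNA that holds a miR-23, a miR-27 and a miR-24 hairpin. Every hairpin is cut into a 5p and a 3p strand, of which the 3p strand is the one mainly kept in these families, and the seed, bases 2 to 8 of the mature strand, selects the target messages. miR-23a is known to repress the muscle ubiquitin ligases atrogin-1 and MuRF1, miR-27 to restrain fat cell differentiation, and miR-24 to hold down cell cycle genes.

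One cluster lies on chromosome 8 of GRCm38.p6, with Mir23a at chr8:84208518-84208592, Mir27a at chr8:84208672-84208758 and Mir24-2 at chr8:84208815-84208921, which together span 404 bases. The other lies on chromosome 13, with Mir23b at chr13:63300484-63300557, Mir27b at chr13:63300712-63300784 and Mir24-1 at chr13:63301208-63301275, which together span 792 bases within the gene Aopep. No gene other than Mir3074-2, which overlaps Mir24-2, was annotated over the chromosome 8 hairpins. Mir3074-1 overlaps Mir24-1.

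RefSeq held the mature sequence of 6 of the 7 members, and these are shown because the paralogs differ so little. Capitals mark the seed, and the sequences read from 5′ to 3′.
miR-23a-3p: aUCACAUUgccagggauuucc
miR-27a-3p: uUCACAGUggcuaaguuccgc
miR-27b-3p: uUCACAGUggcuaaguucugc
miR-24-3p: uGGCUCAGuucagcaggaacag
miR-24-1-5p: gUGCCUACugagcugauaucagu
miR-24-2-5p: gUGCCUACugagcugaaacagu
miR-23b-3p was matched by name only.

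The mature sequences fell into 4 seeds. miR-27a-3p and miR-27b-3p were identical at 20 of 21 positions and differed by C19U, counted from the 5′ end of the mature strand with the base of miR-27a-3p first. miR-24-1-5p and miR-24-2-5p shared their first 16 bases. miR-24-3p had the same sequence from Mir24-1 and Mir24-2, so its signal cannot be assigned to either cluster. The hairpins of the 2 miR-24 genes show this, with the shared 3p strand in capitals.
Mir24-1: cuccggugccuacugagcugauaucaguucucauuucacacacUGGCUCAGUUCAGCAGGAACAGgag
Mir24-2: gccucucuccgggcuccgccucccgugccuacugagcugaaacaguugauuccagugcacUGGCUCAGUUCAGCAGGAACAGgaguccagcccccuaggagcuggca

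Each member was read by 2 probes of 16 to 21 bases printed 15 times each. For the 6 members with a mature sequence the probes were complementary to its 3′ end, and those of miR-24-1-5p covered positions 3 or 4 to 23 of 23. The probes of a paralog pair differed in 1 base, shown in capitals below for probes of equal length. With positions counted from the 5′ end of the probe, the miR-23 probes differed by A3T (miR-23a-3p first) and the miR-27 probes by G3A (miR-27a-3p first).
probe for miR-23a-3p: ggAaatccctggcaatg
probe for miR-23b-3p: ggTaatccctggcaatg
probe for miR-27a-3p: gcGgaacttagccact
probe for miR-27b-3p: gcAgaacttagccact
How far a probe also binds the paralog was not tested.

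The arrays differed as a whole, which sets the scale for every value below. A probe counted as detected when its signal exceeded 3 times its scanner error, and 772 miRNAs were detected in KPC-exosomes and 1031 in MPDC-exosomes, 726 of them on both arrays. Among these 726 miRNAs the median log2 difference (KPC-exosomes minus MPDC-exosomes, as throughout) was -1.37 before normalization and 0.53 after quantile normalization, which forces both arrays to the same distribution. Markers of cell types differed between the arrays too. Of 7 epithelial miRNAs 5 were detected in KPC-exosomes with a summed signal of 98.8, and 7 in MPDC-exosomes with 1781. Of 5 pancreas miRNAs 1 was detected on each array, miR-217-5p in KPC-exosomes with a signal of 60.9 and miR-148a-3p in MPDC-exosomes with 1190, and miR-216a-5p, miR-216b-5p and miR-375-3p were detected on neither. None of 5 mesenchymal miRNAs was detected in KPC-exosomes, whereas 5 were in MPDC-exosomes with a summed signal of 226. Of 5 haematopoietic miRNAs 4 were detected on each array, with summed signals of 704 and 501. Of 3 erythroid and serum miRNAs 2 were detected on each array, with summed signals of 30.6 and 153. Of 11 miRNAs of pluripotent cells 6 were detected in KPC-exosomes with a summed signal of 657, and 11 in MPDC-exosomes with 484290. The part of these differences in the values of the members was not tested. The amount of exosomes and the amount of a miRNA in each of them cannot be told apart in such samples.

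The log2 differences of miR-23a-3p and miR-27a-3p, from the chromosome 8 cluster, lay above those of their counterparts from chromosome 13, before and after normalization. Before normalization miR-23a-3p was 1.18-fold lower in KPC-exosomes and miR-23b-3p 2.96-fold lower, and miR-27a-3p was 1.68-fold lower and miR-27b-3p 4.51-fold lower. miR-24-3p, which both clusters encode, was 1.20-fold higher. After quantile normalization miR-23a-3p and miR-27a-3p were 3.35-fold and 2.01-fold higher in KPC-exosomes, and miR-23b-3p and miR-27b-3p 1.05-fold and 1.48-fold lower. The differences of miR-23a-3p and miR-24-3p before normalization were within 2 scanner errors. Of the 7 members 6 were detected on both arrays, and miR-24-1-5p was detected in MPDC-exosomes only.

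**Figure D1:**
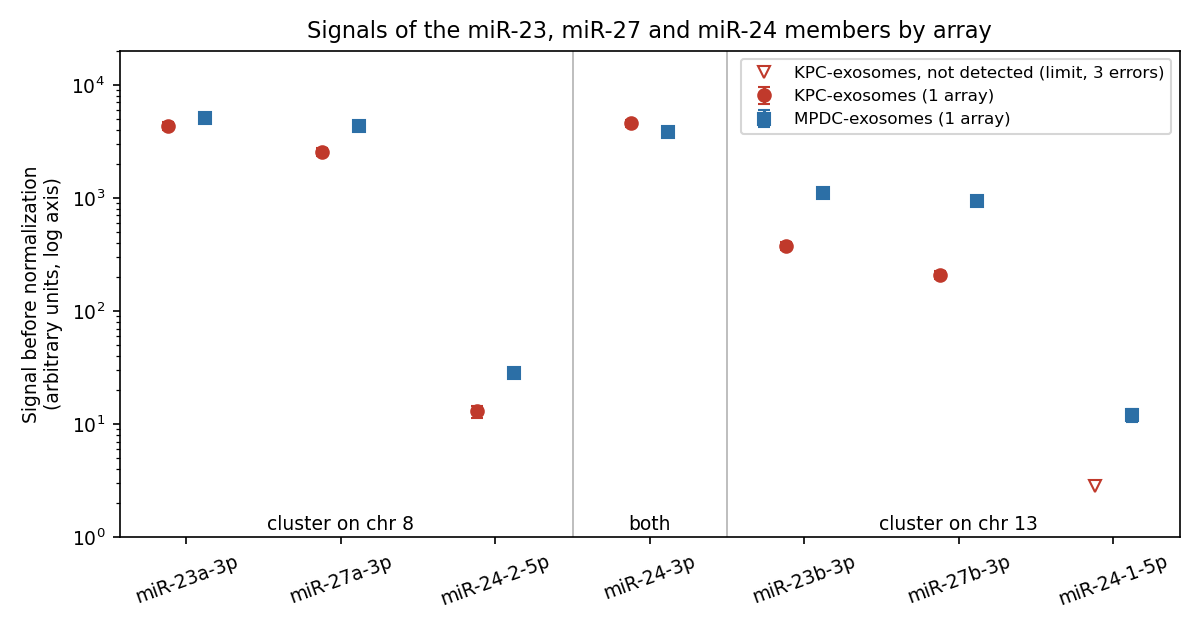
Signal of each member before normalization (arbitrary units, log axis) in KPC-exosomes (circles) and MPDC-exosomes (squares), 1 array each, with bars of 1 scanner error. The arrays lie close together for miR-23a-3p and miR-24-3p and far apart for miR-23b-3p and miR-27b-3p, and the open triangle is the limit of 2.85 (3 scanner errors) for miR-24-1-5p, undetected in KPC-exosomes.

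The miR-23 paralogs are described first. For miR-23a-3p the KPC-exosome signal was 4333 ± 349 (scanner error) and the MPDC-exosome signal 5112 ± 412. Its log2 difference before normalization was -0.24, within 2 scanner errors (1 error being 0.16 on the log2 scale). After quantile normalization it was 1.75, or 3.35-fold higher in KPC-exosomes. The sign of the miR-23a-3p difference thus depended on the normalization. For miR-23b-3p the KPC-exosome signal was 374 ± 30.6 and the MPDC-exosome signal 1106 ± 90.6. Its log2 difference was -1.56 before normalization, or -9.36 in units of its scanner error, and -0.07 after it. After normalization miR-23b-3p was thus at nearly the same level on both arrays.

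The miR-27 paralogs followed the same order. The KPC-exosome signal of miR-27a-3p was 2571 ± 213 and its MPDC-exosome signal 4323 ± 360, a log2 difference of -0.75 before normalization with an error of 0.17. After normalization the difference was 1.01, a 2.01-fold higher value that lay just past the 2-fold limit. For miR-27b-3p the KPC-exosome signal was 209 ± 17.7 and the MPDC-exosome signal 944 ± 80.0, with a log2 difference of -2.17 and an error of 0.17. After normalization miR-27b-3p was still 1.48-fold lower in KPC-exosomes (log2 difference -0.56). It was the only member detected on both arrays that was lower in KPC-exosomes under all 12 ways of processing that were run, with log2 differences from -2.20 to -0.35.

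The miR-24 members covered the widest range. miR-24-3p gave 4582 ± 330 on the KPC-exosome array and 3809 ± 277 on the MPDC-exosome array, a log2 difference of 0.27 that lay within 2 scanner errors. After normalization it was 4.53-fold higher in KPC-exosomes (log2 difference 2.18), the highest value among the members. It was higher in KPC-exosomes under all 12 ways of processing, with log2 differences from 0.24 to 2.24. The 5p strands of the miR-24 hairpins were dim. miR-24-2-5p had a signal of 12.96 ± 1.61 in KPC-exosomes and 28.4 ± 2.48 in MPDC-exosomes, 2.19-fold lower before normalization (log2 difference -1.13, error 0.22) and 1.52-fold higher after it. miR-24-1-5p had a signal of 12.04 ± 1.57 in MPDC-exosomes, from 1 of its 2 probes, and was not detected in KPC-exosomes. Against 3 scanner errors of that probe in KPC-exosomes, a limit of 2.85, the signal was at least 4.22-fold higher in MPDC-exosomes before normalization. Against the undetected signal that both probes summed to in KPC-exosomes, 2.21, the signal of that 1 probe was 5.46-fold higher. This fold is no bound, because 2.21 lies below the limit of 2.85. After normalization the limit in KPC-exosomes lay above the value in MPDC-exosomes, so no fold could be given, and the log2 difference of -2.74 rests on the value of 0.1 set for undetected signals.

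**Figure D2:**
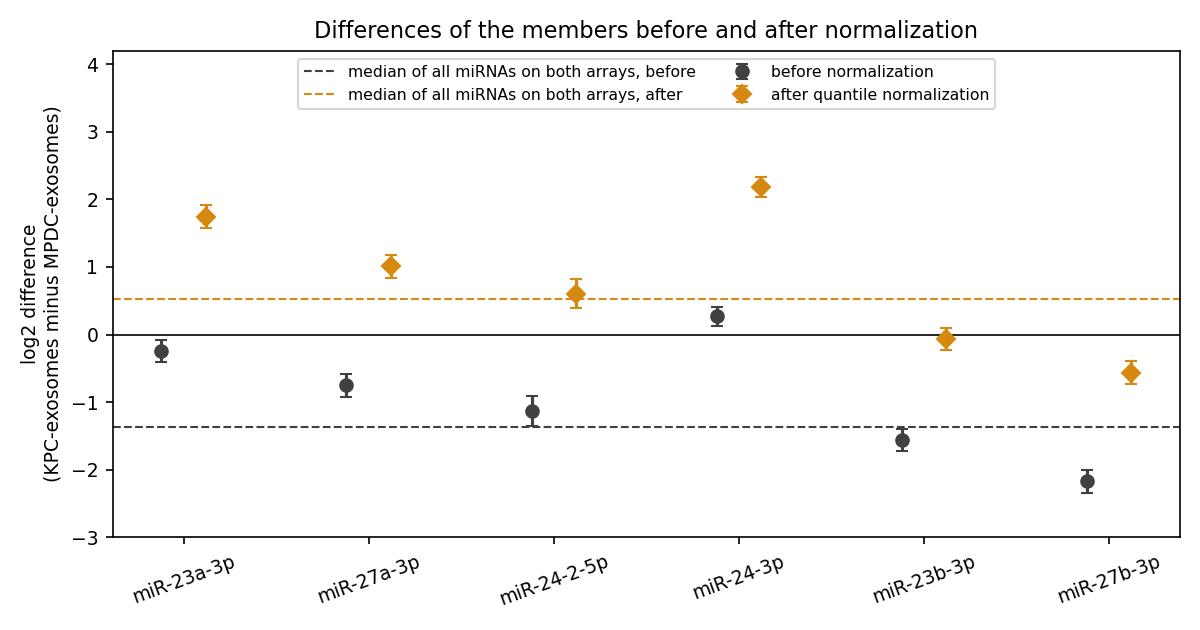
log2 difference (KPC-exosomes minus MPDC-exosomes) of the 6 members detected on both arrays, before (circles) and after (diamonds) quantile normalization, with bars of 1 scanner error of the signals and dashed lines for the medians of all 726 miRNAs detected on both arrays. Normalization raised every member by 1.49 to 1.98, and miR-23b-3p and miR-27b-3p lay below the median of all miRNAs on both scales.

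Among all members detected on both arrays, 5 were lower and 1 was higher in KPC-exosomes before normalization, 4 of them lower by more than 2 scanner errors. After normalization 4 were higher and 2 lower. Their median log2 difference was -0.94 before normalization and 0.81 after it, beside -1.37 and 0.53 for all 726 miRNAs. With a limit of 2-fold, 3 of the 7 members were higher in KPC-exosomes after normalization, against 31.5% of the 1077 miRNAs detected on at least 1 array, and 1 was lower, against 42.7%. The lower one was miR-24-1-5p, and that call rests on the value of 0.1 set for undetected signals: its log2 difference was -0.75 with the sum over all probes. With normexp background correction it was -0.12, but the offset of 50 added there shrinks the differences of dim miRNAs. Before normalization 0 of the 7 members were at least 2-fold higher, against 11.1%, and 4 were at least 2-fold lower, against 68%. With so few members these counts do not set them apart from the other miRNAs.

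The place of each member in that distribution changed little with the normalization. miR-24-3p had a log2 difference that 16.1% of the 726 miRNAs exceeded before normalization and 22.9% after it. For miR-23a-3p these shares were 23% and 26.7%, for miR-27a-3p 34.4% and 39.8%, and for miR-24-2-5p 43.7% and 48.5%. For miR-23b-3p they were 55.9% and 64.3%, and for miR-27b-3p 67.8% and 71.3%. The upper and lower quartiles of all miRNAs were -0.33 and -2.63 before normalization. Apart from miR-23a-3p and miR-24-3p, which lay above the upper one, the members detected on both arrays lay between them. After quantile normalization the quartiles were 1.99 and -0.78, and of these members only miR-24-3p, at 2.18, lay outside them. miR-23b-3p and miR-27b-3p lay below the median of all miRNAs under each of the 12 ways of processing, at -0.60 to -0.08 and at -1.09 to -0.53 relative to it, and miR-23a-3p, miR-27a-3p and miR-24-3p lay above it under each. Each member was also set beside equally bright miRNAs, non-members on both arrays with an MPDC-exosome signal within 2-fold of its own. Before normalization miR-23b-3p, miR-27b-3p and miR-24-2-5p lay 0.92, 0.15 and 0.04 above the median of these miRNAs. miR-27a-3p, miR-23a-3p and miR-24-3p lay 2.22, 2.66 and 3.31 above it. After quantile normalization miR-23b-3p lay at 0.79, miR-27b-3p at 0.05 and miR-24-2-5p at -0.17 relative to it.

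**Figure D3:**
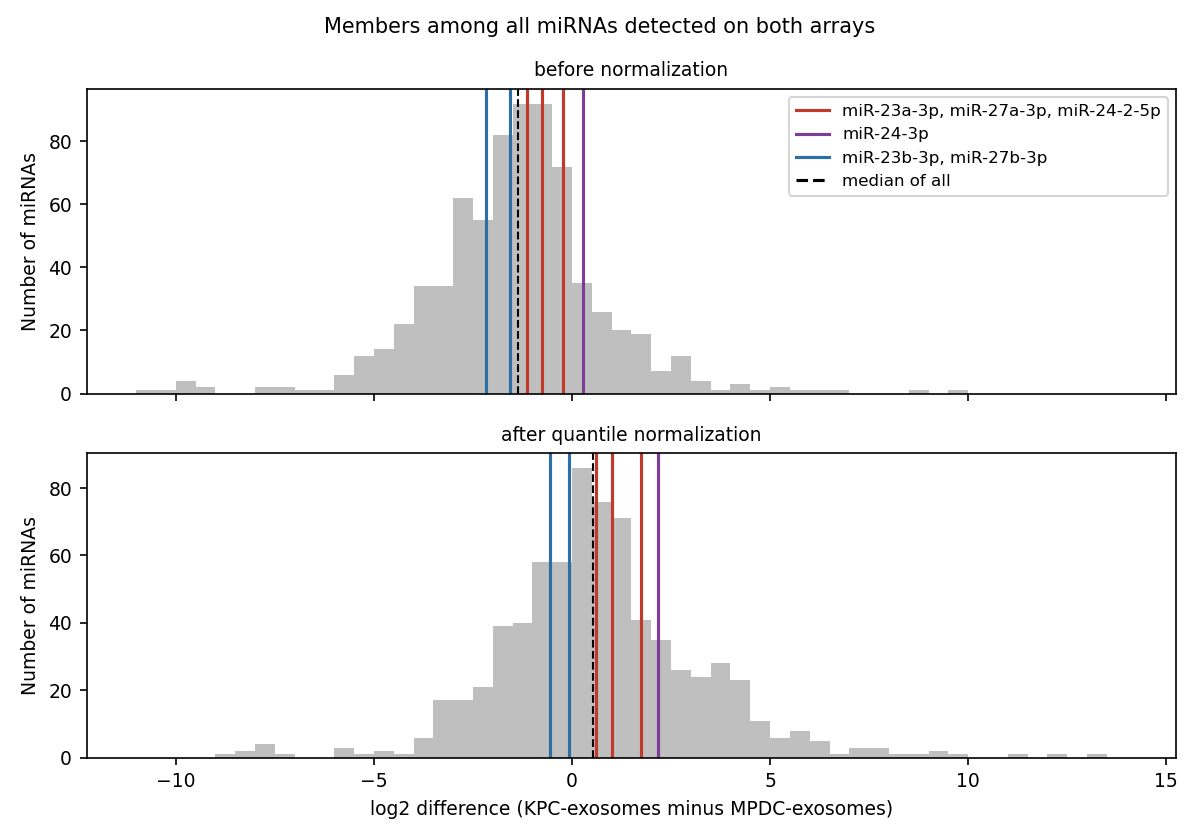
Number of miRNAs by log2 difference (KPC-exosomes minus MPDC-exosomes) among the 726 detected on both arrays, before (top) and after (bottom) quantile normalization. Vertical lines mark the 6 members, and those of miR-23b-3p and miR-27b-3p lie left of the dashed median (-1.37 and 0.53) while the other 4 lie right of it.

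The paralogs were compared directly by subtracting one log2 difference from the other. A factor that scales a whole array cancels in this gap. Binding of a probe to the paralog and effects of brightness do not cancel in it. Before normalization the median log2 difference of equally bright miRNAs was -2.90 for miR-23a-3p and -2.48 for miR-23b-3p. It was -2.97 for miR-27a-3p and -2.32 for miR-27b-3p. The part of binding and of brightness in the gap was not tested. The gap of miR-23a-3p over miR-23b-3p was 1.33 on the log2 scale before normalization, or 2.51-fold, which was 5.65 combined scanner errors of 0.23. The gap of miR-27a-3p over miR-27b-3p was 1.42, or 2.68-fold, which was 5.88 combined errors of 0.24. The quartiles of all 726 miRNAs, at -2.63 and -0.33 before normalization, lay further apart than either gap. Neither gap was thus large beside the spread of all miRNAs. For the 5p strands, miR-24-2-5p exceeded miR-24-1-5p by at least 0.945, against the limit of 3 scanner errors. In each of the 3 families the member from chromosome 8 thus had the higher difference before normalization, for miR-24 from 1 dim probe of miR-24-1-5p. With normexp background correction and quantile normalization the 5p strands nearly coincided, at -0.05 for miR-24-2-5p and -0.12 for miR-24-1-5p. Normexp here added an offset of 50, which shrinks the differences of dim strands, so this closeness does not compare them. With the sum over all probes, also after quantile normalization, miR-24-2-5p was at 0.55 and miR-24-1-5p at -0.75. Quantile normalization does not cancel in the gap, and after it the gaps were 1.81 (3.52-fold) for miR-23 and 1.57 (2.98-fold) for miR-27. The scanner error did not follow the spread of the spots. For a probe of miR-24-3p in MPDC-exosomes it was 146 on a signal of 1464, while the spots varied by 1.92%. For a probe of miR-23b-3p in KPC-exosomes it was 7.94 on a signal of 78.7, while the spots varied by 7.54%. Nor does the scanner error cover the spread between cultures or exosome preparations, and that spread was not measured.

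**Figure D4:**
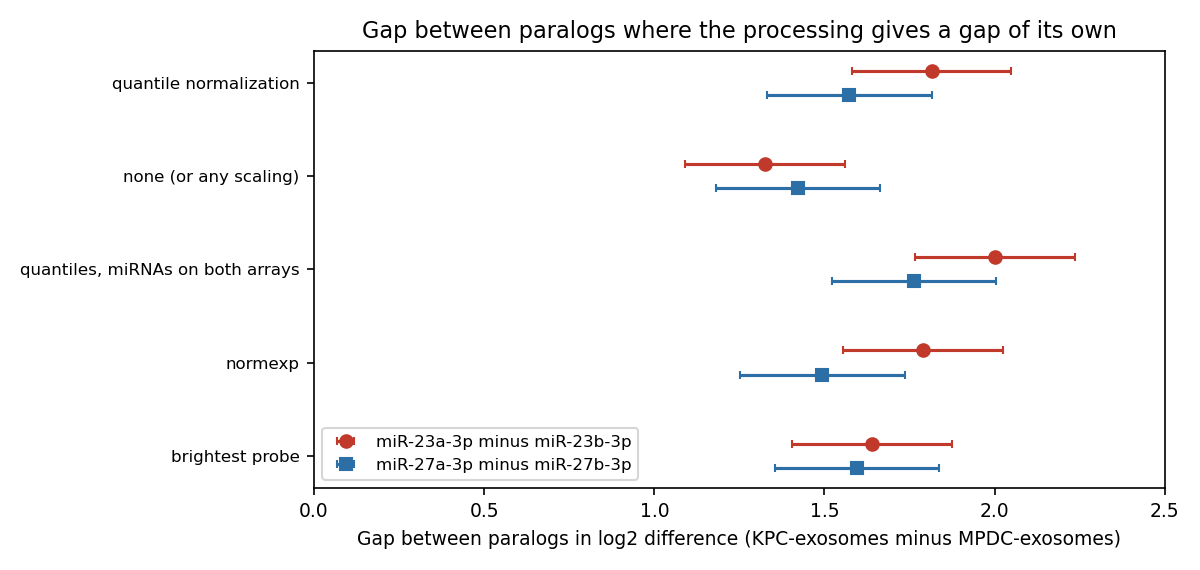
Gap between paralogs in log2 difference (KPC-exosomes minus MPDC-exosomes) for miR-23 (circles) and miR-27 (squares), with bars of 1 combined scanner error of the signals, under the 5 ways of processing that give a gap of their own. Every gap lies above 0, from 1.33 to 2.0 for miR-23 and from 1.42 to 1.76 for miR-27.

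Of the 12 ways of processing only 5 gave distinct gaps. Absent normalization, scalings of a whole array and the mean processed signal, which for these probes differs from the total signal by a factor per array, gave the same gap in 6 of the 12. Quantile normalization, the deposited log2 values and the sum over all probes gave the same gap in 3. The others were quantiles over the miRNAs on both arrays, normexp background correction and the brightest probe.

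The single probes gave the same order, but the 2 probes of a member were nested, the shorter lying within the longer. Both read the same RNA on the same array, so their closeness is no independent check. Across the 12 member probes detected on both arrays, the 2 probes of a member differed in their log2 difference by 0.0040 for miR-23a-3p to 0.30 for miR-24-2-5p. Taking every probe of miR-23a-3p against every probe of miR-23b-3p gave gaps of 1.31 to 1.33. The same for miR-27 gave gaps of 1.37 to 1.48. The spots of a probe varied by 1.92% to 15.3% of their mean (median 4.19%), with the highest value at miR-24-2-5p and at most 7.54% elsewhere.

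**Figure D5:**
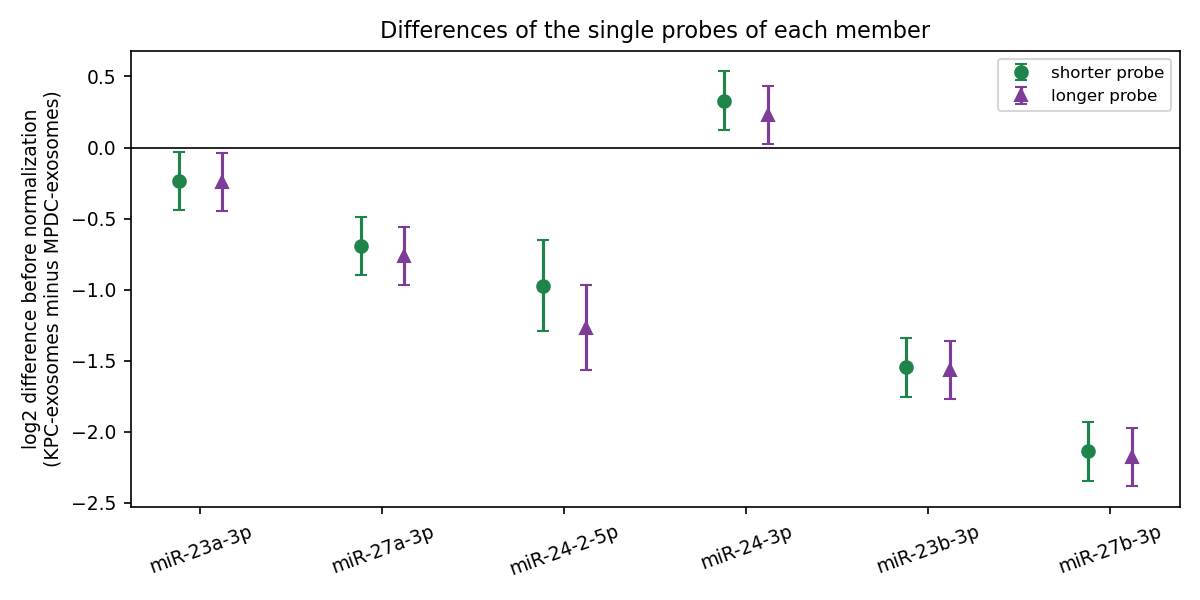
log2 difference before normalization (KPC-exosomes minus MPDC-exosomes) of the shorter (circles) and longer (triangles) probe of each of the 6 members detected on both arrays, with bars of 1 scanner error. The 2 probes of a member lie within 0.30 of each other, and no probe of miR-23b-3p or miR-27b-3p overlaps those of its paralog.

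Within the clusters, miR-23 lay above miR-27 by little more than 2 combined scanner errors. Before normalization the log2 difference of miR-23a-3p exceeded that of miR-27a-3p by 0.51, or 2.17 errors, and on chromosome 13 that of miR-23b-3p exceeded miR-27b-3p by 0.61, or 2.53 errors. miR-24-3p, which cannot be assigned to either cluster, exceeded miR-27a-3p by 1.02, or 4.53 errors, and miR-23a-3p by 0.51, or 2.29 errors.

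The strands of one hairpin differed as well. The 3p strand miR-24-3p exceeded miR-24-2-5p by 1.40, or 5.31 combined errors, although the miR-24-3p signal cannot be assigned to Mir24-2 alone. miR-23a-3p exceeded its passenger strand miR-23a-5p by 1.81. miR-23a-5p had a signal of 29.6 ± 2.15 in KPC-exosomes, from 3 of 4 probes, and 123 ± 6.28 in MPDC-exosomes, from all 4, and its log2 difference was -2.05 before normalization and -0.20 after it. Its probes disagreed, with log2 differences of -2.99, -0.97 and -2.02 for the 3 detected on both arrays, so that the gap of miR-23a-3p over a single probe ran from 0.73 to 2.75. The passenger strands miR-23b-5p, miR-27a-5p and miR-27b-5p were detected on neither array.

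The opposite strand of the miR-24 genes carries the miR-3074 hairpins. Of their products, miR-3074-5p and miR-3074-1-3p were detected on neither array. miR-3074-2-3p was near the detection limit, with 7.01 ± 1.41 on the KPC-exosome array and 3.70 ± 1.07 on the other, a log2 difference of 0.92 with an error of 0.51. The first signal sums 2 probes and the second is 1 probe, and the probe detected on both arrays differed by -0.027. After normalization the difference of the sums became 4.41.

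Other miRNAs were compared by sequence. Of the 1608 array miRNAs with a mature sequence in RefSeq, 4 outside the members carried the seed of miR-24-3p and none carried another seed of the members. miR-5124b and miR-6410 were detected on neither array. miR-6369 and miR-6413 were detected in MPDC-exosomes only, with signals of 8.62 ± 1.54 and 17.9 ± 1.90. miR-128-3p, whose first 8 bases match miR-27a-3p from position 2, is shown with those bases in capitals.
miR-128-3p: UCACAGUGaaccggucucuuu
The KPC-exosome array gave 94.1 ± 7.61 for it and the MPDC-exosome array 931 ± 74.2, a log2 difference of -3.31 before normalization and -1.66 after it, below every member detected on both arrays. The miRNAs nearest to the median of the members after normalization were miR-7016-3p at 0.81, miR-6948-5p at 0.80 and miR-7046-3p at 0.80, in log2 difference.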

How the data were processed

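RNA of 1 exosome sample per line was hybridised to 1-colour Agilent mouse miRNA arrays, both on 1 slide. The authors deposited scanner output whose signals are background-subtracted intensities on a linear scale, made with Feature Extraction 10.7.1.1 per the file headers (9.1 per the labels). A table of log2 values, which the authors had normalized across the arrays, was deposited too. The labels describe labelled cRNA made from 0.5 µg of RNA.

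Total signals of the probes above 3 errors were summed per miRNA. Undetected miRNAs got a signal of 0.1, and the log2 signals were quantile normalized with the control features. A miRNA detected on at least 1 array was called at 2-fold. For miR-24-1-5p, undetected on 1 array, a fold was taken against the higher of that array's lowest detected signal and the sum of its probes. A bound, chosen after seeing the data, was taken against 3 errors of the probe that the other array detected. Scanner errors were propagated to the log2 scale. No test was made, since each group was 1 array, and the number of arrays limits the precision.

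All members were named, with the other strands of their hairpins, the opposite strand, miRNAs of the same or offset seed, and the 3 miRNAs nearest to the members' median. The members and lists were chosen with earlier results of these data known. Python 3.11.15, R 4.3.3 and limma 3.58.1 (normexp, offset 50) were used. Calls were checked on simulated data without a shift between the arrays and without undetected miRNAs. That check does not cover calls that rest on either. Alternatives were no normalization, scalings, other quantiles, processed signal, normexp, other ways of combining probes, the deposited values and other call rules. Sequences and gene positions came from RefSeq (GRCm38.p6).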

Additional observations from a re-analysis of the deposited data

How the results depend on the processing

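The direction of several members rested on the normalization. Without normalization the log2 difference of miR-23a-3p was -0.24 and that of miR-27a-3p -0.75, and with spike-in scaling they were -0.26 and -0.77, against 1.75 and 1.01 after quantile normalization. The median of the members was -0.94 without normalization and -0.97 with spike-in scaling, against 0.81. The count of members at least 2-fold higher was 0 under both and 1 with a 4-fold limit, against 3. It was 2 with scaling by the median or the 75th percentile of the miRNAs on both arrays and with the processed signal, where miR-27a-3p lost its call at 0.88, 0.80 and 0.72, and 4 where a difference above 2 scanner errors was called. Without normalization and with spike-in scaling the count at least 2-fold lower was 4, against 1. That count was 0 with quantiles over the miRNAs on both arrays, normexp, the sum over all probes or detection required on both arrays, and 2 where a difference above 2 scanner errors was called. The gap of miR-23a-3p over miR-23b-3p was 1.33 without normalization, with each scaling and with the processed signal, against 1.81, and that of miR-27a-3p over miR-27b-3p stayed within 1.42 to 1.76. The choice among these normalizations cannot be settled from 1 array per line. No paired analysis was possible because each line had 1 array and no test was made. The signals of miR-24-1-5p and miR-24-2-5p lay near the detection limit, which bounds what their differences can show.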
